A study of Mus musculus and Rattus norvegicus with 79 samples.

Results

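The genes described here are 8 membrane carriers of amino acids that the liver makes: Slc38a2, Slc38a3, Slc38a4, Slc7a2, Slc43a1, Slc1a2, Slc1a4 and Slc3a2. They were chosen by name, with earlier results of these data known. Each was followed in the RefSeq transcript row with its highest summed count over both mouse tables. The 8 are among the 24786 genes named in those tables. All 8 passed the filter on low counts in both experiments. The transcript rows do not come with lengths here, so levels are compared between samples of one gene and never between genes.

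Hepatocytes take up most amino acids that reach the liver from the gut and use them for protein, glucose and urea. Slc38a2, Slc38a3 and Slc38a4 encode sodium-coupled carriers of small neutral amino acids (system A for Slc38a2 and Slc38a4, and system N, which carries glutamine in either direction, for Slc38a3). Slc7a2 encodes a carrier of the cationic amino acids arginine, lysine and ornithine, and Slc43a1 a sodium-independent carrier of branched-chain and other large neutral amino acids. Slc1a2 encodes a high-affinity glutamate carrier that in liver is known from hepatocytes around the central vein, Slc1a4 a carrier of alanine, serine and cysteine, and Slc3a2 the heavy chain that brings several Slc7 light chains to the cell surface.

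Liver RNA was sequenced in a pair of mouse experiments. Time is Zeitgeber time (ZT), counted from lights on. In the first, C57BL/6 livers with no virus came from fed mice at 4 hours of the night (ZT13, ZT14, ZT18, ZT22) and from unfed mice at the same hours plus ZT10, giving 27 polyA libraries in 9 groups of 3. In the second, Nr3c1fl/fl mice, which carry floxed alleles of the glucocorticoid receptor (GR) gene, were killed 10 days after injection of AAV-tbg-CRE or AAV-tbg-GFP, adeno-associated viruses whose tbg promoter is active in hepatocytes, giving 36 libraries depleted of ribosomal RNA in 12 groups of 3. CRE and GFP mice were unfed at ZT10 and at ZT12, had food at the 4 night hours, and both carry the floxed alleles and a virus. Food was restricted to the night during training. The labels do not give the age or sex of the mice, nor say that each library is another mouse, so p-values here measure the spread between libraries. RNA of rat hepatocytes in culture was not analysed here.

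Total counts were 23.87 to 91.77 M in C57BL/6 libraries and 34.64 to 78.76 M in Nr3c1fl/fl libraries. The unmatched row NR_046233 held 0.096% to 2.05% of counts in C57BL/6 libraries and 2.23% to 28.5% in Nr3c1fl/fl libraries, with 6 over 20%, all unfed at ZT10 or ZT12 and 5 of them GFP. Nr3c1 was at 102 to 202 CPM (counts per M counts of tested genes, TMM-scaled) in the 18 CRE libraries and at 146 to 323 CPM in the 18 GFP libraries, and the CRE range was below the GFP range at each time. Its mean log2 fold change over the 6 times was -0.64 ± 0.06 (SE), which is a loss in whole liver, with non-hepatocytes included. By time, edgeR's quasi-likelihood test called it at an adjusted p under 0.05 at ZT10, ZT12, ZT13 and ZT14. It was not called at ZT18 (-0.42 ± 0.14, adjusted p = 0.357) or ZT22 (-0.51 ± 0.14, adjusted p = 0.139). All 9 hepatocyte markers had counts. Bile duct markers summed to 127 CPM in fed C57BL/6 replicate 1 at ZT14 and to 20.5 to 38.6 CPM in the other fed C57BL/6 livers, and pancreas markers reached 461 CPM in unfed C57BL/6 replicate 3 at ZT18. The experiments differ in library kind and were normalised separately, so no level is compared between them.

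The first comparison asked which transporters followed food with the clock hour held fixed. In the mean of the 4 paired hours, Slc38a2, Slc38a4, Slc7a2 and Slc1a2 fell in fed livers and Slc1a4 rose (edgeR's quasi-likelihood test, adjusted over all 14741 tested genes, 12 libraries a side). Thus 5 of the 8 transporters passed the threshold of an adjusted p under 0.05, against 35.4% of all tested genes. The 4 lower and 1 higher stand beside 17.9% of genes lower and 17.5% higher. The median log2 fold change of the 8 was -0.24 and that of all genes 0.01. In whole tissue, fewer cells of a type and less RNA per cell cannot be told apart. Of the 10 endothelial markers 9 fell in the same average, and their summed level at ZT18 was 243 to 261 CPM in fed and 347 to 376 CPM in unfed livers. The fat list summed to 15.2 to 17.3 CPM in fed and 20.7 to 50.9 CPM in unfed livers at ZT18. Of its 6 genes only 2, Cidec and Plin4, were tested in C57BL/6 livers, and Adipoq, Plin1, Lep and Retn did not pass the filter. The part of the endothelial and fat lists in the results was not tested.

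**Figure D1:**
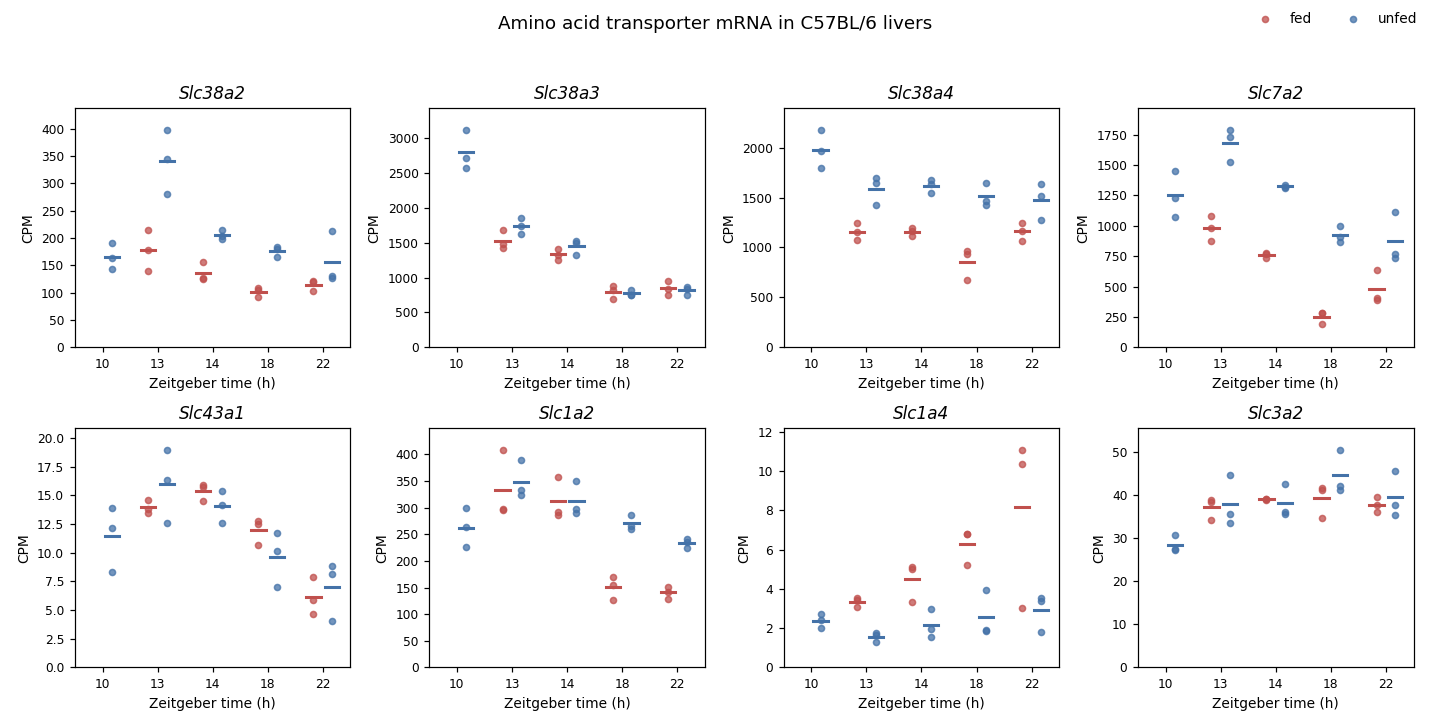
CPM of each transporter (vertical axes, from 0) against Zeitgeber time in C57BL/6 livers, with 1 point per library, fed left of unfed at each hour, and bars at the mean of 3 libraries; ZT10 has unfed livers alone. Slc7a2 at ZT18 lies between 191 and 284 CPM in fed and between 866 and 1001 CPM in unfed livers, whereas Slc3a2 points of both groups lie among each other at every hour.

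Among the system A carriers, Slc38a2 at ZT13 was at 214, 140 and 178 CPM in fed livers and at 280, 398 and 344.5 CPM in unfed livers. At ZT18 it was at 91.2, 104 and 109 CPM in fed livers and at 180, 183 and 165 CPM in unfed livers. The groups did not overlap at any of the 4 hours. The mean log2 fold change was -0.70 ± 0.08 (SE, adjusted p = 4.32e-07). The hourly values were -0.94 ± 0.17 at ZT13 (adjusted p = 0.00353), -0.60 ± 0.17 at ZT14 (adjusted p = 0.0335), -0.80 ± 0.17 at ZT18 (adjusted p = 0.000954) and -0.45 ± 0.17 at ZT22, which missed the threshold (adjusted p = 0.0603). The call at ZT13 was lost without fed replicate 2 (adjusted p = 0.0538), and that at ZT14 in 5 of the 6 fits that each left out 1 library of the pair (adjusted p up to 0.153). The ZT14 call was also lost without the 2 libraries rich in bile duct or pancreas transcripts (adjusted p = 0.161). The ZT22 value was -0.16 without unfed replicate 1 (adjusted p = 0.513), and it passed without unfed replicate 2 or 3 (adjusted p = 0.0335 and 0.0306), by DESeq2 (adjusted p = 0.0409) and with no filter on low counts (adjusted p = 0.0498).

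Slc38a4, the liver-rich system A carrier, was the transporter whose fed and unfed libraries did not overlap even when all 4 hours were pooled. It was at 672, 969 and 930 CPM in fed livers at ZT18, against 1427, 1469 and 1649 CPM in unfed livers. At the other hours fed livers lay between 1064 and 1249 CPM and unfed livers between 1279 and 1695 CPM. The mean log2 fold change was -0.53 ± 0.06 (adjusted p = 1.55e-07). It fell at ZT14 (-0.49 ± 0.12, adjusted p = 0.0147), ZT18 (-0.82 ± 0.12, adjusted p = 1.48e-05) and ZT22 (-0.35 ± 0.12, adjusted p = 0.0387), and was at -0.45 ± 0.12 at ZT13 (adjusted p = 0.057). The calls at ZT14 and ZT22 were each lost in 4 of 6 fits without 1 library (adjusted p up to 0.0905 and 0.2). That at ZT14 was also lost without the 2 libraries rich in bile duct or pancreas transcripts (adjusted p = 0.0888), and that at ZT22 with only the compared groups in the fit (adjusted p = 0.131). DESeq2 called ZT13 (adjusted p = 0.0133).

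Slc38a3, the system N carrier, did not pass the test for food at any of the 4 hours. At ZT18 it was at 692, 820 and 882 CPM in fed livers and at 824, 750 and 745 CPM in unfed livers. Its mean log2 fold change was -0.05 ± 0.05 (adjusted p = 0.489).

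The cationic carrier Slc7a2 had the largest mean fall among the 8, a log2 fold change of -1.08 ± 0.09 (adjusted p = 5.49e-10). It was at 984, 875 and 1077 CPM in fed livers at ZT13 and at 1528, 1789 and 1731 CPM in unfed livers. At ZT18 it was at 191, 278 and 284 CPM in fed livers, against 1001, 866 and 904 CPM in unfed livers. Fed and unfed libraries stayed apart at all 4 hours, and the gene fell at each, with log2 fold changes of -0.78 ± 0.17 at ZT13 (adjusted p = 0.0196), -0.80 ± 0.17 at ZT14 (adjusted p = 0.00582), -1.88 ± 0.17 at ZT18 (adjusted p = 2.51e-08) and -0.86 ± 0.17 at ZT22 (adjusted p = 0.000665). The ZT13 call was lost in 4 of 6 fits without 1 library (adjusted p up to 0.168). The response differed among the hours (interaction, adjusted p = 0.00731), where the hour and the length of the fast in unfed livers cannot be told apart. That test was passed by 8.1% of genes and by 2 of the 8 transporters.

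The other was the glutamate carrier Slc1a2 (adjusted p = 0.00345). At ZT13 it was at 298, 295 and 408 CPM in fed livers and at 333, 324 and 389.5 CPM in unfed livers, and the log2 fold changes at ZT13 and ZT14 were -0.06 ± 0.13 and -0.00 ± 0.13 (adjusted p = 0.873 and 0.995). At ZT18 it was at 126, 155 and 169 CPM in fed livers and at 260, 265 and 286 CPM in unfed livers. At ZT22 it was at 151, 142 and 129 CPM in fed livers, against 224.5, 235 and 240.3 CPM in unfed livers. The groups lay among each other early in the night and apart later, with log2 fold changes of -0.85 ± 0.13 at ZT18 (adjusted p = 3.18e-05) and -0.73 ± 0.13 at ZT22 (adjusted p = 0.000248). The mean over the 4 hours was -0.41 ± 0.07 (adjusted p = 2.05e-05).

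Slc1a4, the alanine, serine and cysteine carrier, went the other way. It was at 3.09, 3.51 and 3.45 CPM in fed livers at ZT13, against 1.63, 1.28 and 1.76 CPM in unfed livers. At ZT18 it was at 6.78, 6.77 and 5.24 CPM in fed livers, against 3.92, 1.83 and 1.88 CPM in unfed livers. At ZT22 it was at 10.4, 3.01 and 11.1 CPM in fed livers and at 3.55, 3.40 and 1.78 CPM in unfed livers, so that 1 fed library lay among the unfed ones there and the groups were apart at the other hours. The mean log2 fold change was 1.25 ± 0.18 (adjusted p = 8.31e-06). It rose at ZT18 (1.32 ± 0.36, adjusted p = 0.00791) and ZT22 (1.48 ± 0.36, adjusted p = 0.00389), and was at 1.11 ± 0.38 at ZT13 and 1.08 ± 0.38 at ZT14 (adjusted p = 0.179 and 0.099). With only the compared groups in the fit, the ZT22 call was lost (adjusted p = 0.0546) and ZT14 passed (adjusted p = 0.0391). The values rest on 58 to 302 counts a library in fed and 32 to 92 counts in unfed livers, and of counts from 1 to 10 in these libraries 75.7% to 84.6% were even. Without the libraries rich in bile duct and pancreas transcripts the ZT18 value was 1.15 (adjusted p = 0.0512).

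Slc1a4 is also a known target of ATF4, the transcription factor of the amino acid response, and its promoter is shown because it holds letters of the element that ATF4 binds with a C/EBP partner. The run below is RefSeq sequence of GRCm38.p6, chr11:20332664-20332963 on the minus strand, from 250 bases before to 50 after the listed start. The capitals mark the C/EBP-ATF response element, searched as TGATGNAA on both strands, which here lies across the start on the reverse strand.
Slc1a4: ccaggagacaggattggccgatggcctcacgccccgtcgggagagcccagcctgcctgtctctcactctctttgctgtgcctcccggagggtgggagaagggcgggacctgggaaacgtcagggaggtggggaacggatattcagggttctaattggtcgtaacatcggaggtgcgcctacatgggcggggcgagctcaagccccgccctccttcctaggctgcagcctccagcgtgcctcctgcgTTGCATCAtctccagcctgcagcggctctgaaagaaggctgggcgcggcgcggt
Of 32851 RefSeq promoters of this length 3.97% hold that motif, and it was not in the windows of the other 5 transporters listed there. Letters outside these windows were not searched, so its absence there does not tell whether a gene is an ATF4 target. Slc38a3 and Slc7a2 have no entry. The cAMP response element TGACGTCA (1.79% of promoters), the forkhead motif GTAAACA (3.65%) and the full palindromic GR element (0.0396%) were in none of the windows, and the GR half-site AGAACA (19.0%) was in 1 of 3 windows of Slc38a4.

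Slc43a1 and Slc3a2 did not pass the test for food. Slc43a1, the large neutral carrier, was at 10.7, 12.5 and 12.8 CPM in fed livers at ZT18 and at 11.7, 6.99 and 10.1 CPM in unfed livers, and its mean log2 fold change was 0.02 ± 0.11 (adjusted p = 0.91). Slc3a2, the heavy chain, was at 41.4, 34.7 and 41.8 CPM in fed livers at ZT18 and at 41.3, 42.2 and 50.6 CPM in unfed livers. Its mean log2 fold change was -0.06 ± 0.06 (adjusted p = 0.436).

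By hour, 2, 3, 5 and 4 of the 8 transporters passed at ZT13, ZT14, ZT18 and ZT22. Of all tested genes 1.11%, 5.62%, 26.4% and 20.2% passed at those hours. DESeq2 called 3, 3, 5 and 5 of the transporters. The shares of all genes are edgeR's, and those by DESeq2 are not given here.

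**Figure D2:**
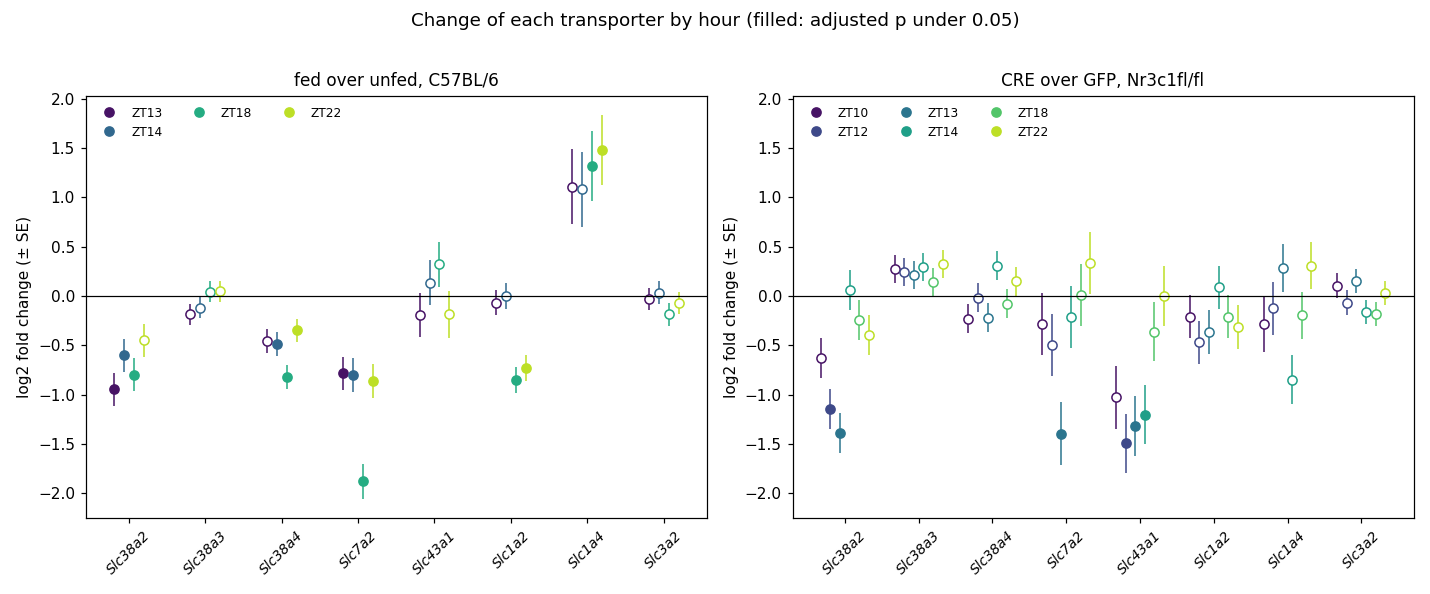
Log2 fold change with its standard error (vertical axis) of each transporter at each hour, fed over unfed in C57BL/6 livers on the left and CRE over GFP in Nr3c1fl/fl livers on the right, with filled points past an adjusted p of 0.05. Slc7a2 reaches -1.88 in fed livers at ZT18, and in CRE livers the filled points lie at ZT12, ZT13 and ZT14.

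The hour of the night was examined within each feeding state. Over the 5 unfed times 7 of the 8 transporters passed (42.4% of genes), and over the 4 fed times 7 (37.2% of genes). In unfed livers the hour and the length of the fast cannot be told apart. Slc38a3 had the smallest adjusted p over unfed times among the 8 (2.49e-12). In fed livers it was at 1529 ± 139, 1333 ± 79.6, 798 ± 96.5 and 843.5 ± 99.0 CPM in order of hour (SD, n = 3 each, adjusted p = 8.89e-08). In unfed livers it was at 2801 ± 281, 1738 ± 117, 1445 ± 104, 773 ± 44.3 and 816.5 ± 56.2 CPM over the 5 times from ZT10 on. Both states were lowest in the last 2 hours sampled.

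Slc38a2 in fed livers was at 177 ± 37.1, 136 ± 17.98, 101 ± 9.03 and 114.5 ± 10.3 CPM from ZT13 to ZT22 (adjusted p = 0.00212). In unfed livers it was at 166 ± 23.6, 341 ± 59.1, 205 ± 7.94, 176 ± 9.33 and 156 ± 48.4 CPM over the 5 times from ZT10 on (adjusted p = 1.65e-05), so ZT13 stood above the other times. Slc43a1 was highest at ZT14 in fed livers, 15.4 ± 0.749 CPM, and was at 6.14 ± 1.62 CPM there at ZT22 (adjusted p = 0.00051). In unfed livers it was highest at ZT13, 16.0 ± 3.20 CPM, and was at 7.01 ± 2.59 CPM at ZT22 (adjusted p = 0.00157). The 2 that did not pass were Slc1a4 in unfed livers (adjusted p = 0.33, means of 1.56 to 2.91 CPM) and Slc3a2 in fed livers (adjusted p = 0.919, means of 37.3 to 39.3 CPM). In fed livers Slc1a4 was at 3.35 ± 0.228, 4.49 ± 0.992, 6.26 ± 0.886 and 8.15 ± 4.46 CPM from ZT13 to ZT22 (adjusted p = 0.0233), and that call was lost without any 1 of 5 libraries (adjusted p up to 0.106). For Slc38a4 the call over unfed times (adjusted p = 0.0292) was lost without ZT10 replicate 1 or 2 or ZT18 replicate 1 (adjusted p up to 0.222), and that over fed times (adjusted p = 0.00996) without ZT18 replicate 1 (adjusted p = 0.117).

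Over the 9 C57BL/6 groups the highest mean was 6.70 times the lowest for Slc7a2 (unfed ZT13 over fed ZT18), 5.23 times for Slc1a4 (fed ZT22 over unfed ZT13), 3.62 times for Slc38a3 (unfed ZT10 over unfed ZT18) and 3.36 times for Slc38a2 (unfed ZT13 over fed ZT18). It was 2.60 times for Slc43a1, 2.48 times for Slc1a2, 2.31 times for Slc38a4 and 1.56 times for Slc3a2. When the groups are put in order of their means, 5 to 7 of the 8 neighbouring pairs overlap in their libraries for each gene. The unfed ZT13 group stood clear of the next for Slc38a2 and Slc7a2, and the unfed ZT10 group for Slc38a3 and Slc38a4.

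The second comparison asked which transporters depend on GR in hepatocytes. Averaged over the 6 times, Slc38a2 and Slc43a1 were lower in CRE than in GFP livers and Slc38a3 was higher (edgeR, adjusted over 15709 genes, 18 libraries a side). These are 3 of the 8 transporters, against 14.5% of all tested genes, with 2 lower beside 6.71% of genes lower and 1 higher beside 7.77% higher. DESeq2 called 4, the added one being Slc1a2, and its share of all genes is not given here. The median log2 fold change of the 8 was -0.19 and that of all genes -0.01. By time, 2, 3 and 1 of the 8 passed at ZT12, ZT13 and ZT14, where 3.64%, 5.09% and 1.56% of genes did. At ZT10, ZT18 and ZT22 edgeR and DESeq2 each called 0, with 2, 0 and 1 at an unadjusted p under 0.05. EdgeR called 0.707%, 0.102% and 0.146% of genes there, and at ZT18 and ZT22 it did not call Nr3c1 itself. The summed level of the 9 hepatocyte markers at ZT12 was 67770 to 73060 CPM in CRE and 77800 to 92230 CPM in GFP livers. The fat list summed to 19.4 to 23.6 CPM in CRE and 35.96 to 57.6 CPM in GFP livers at ZT12, where Cidec and Plin4 were the list's 2 tested genes of 6 and Adipoq, Plin1, Lep and Retn did not pass the filter. The part of either in the results was not tested.

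**Figure D3:**
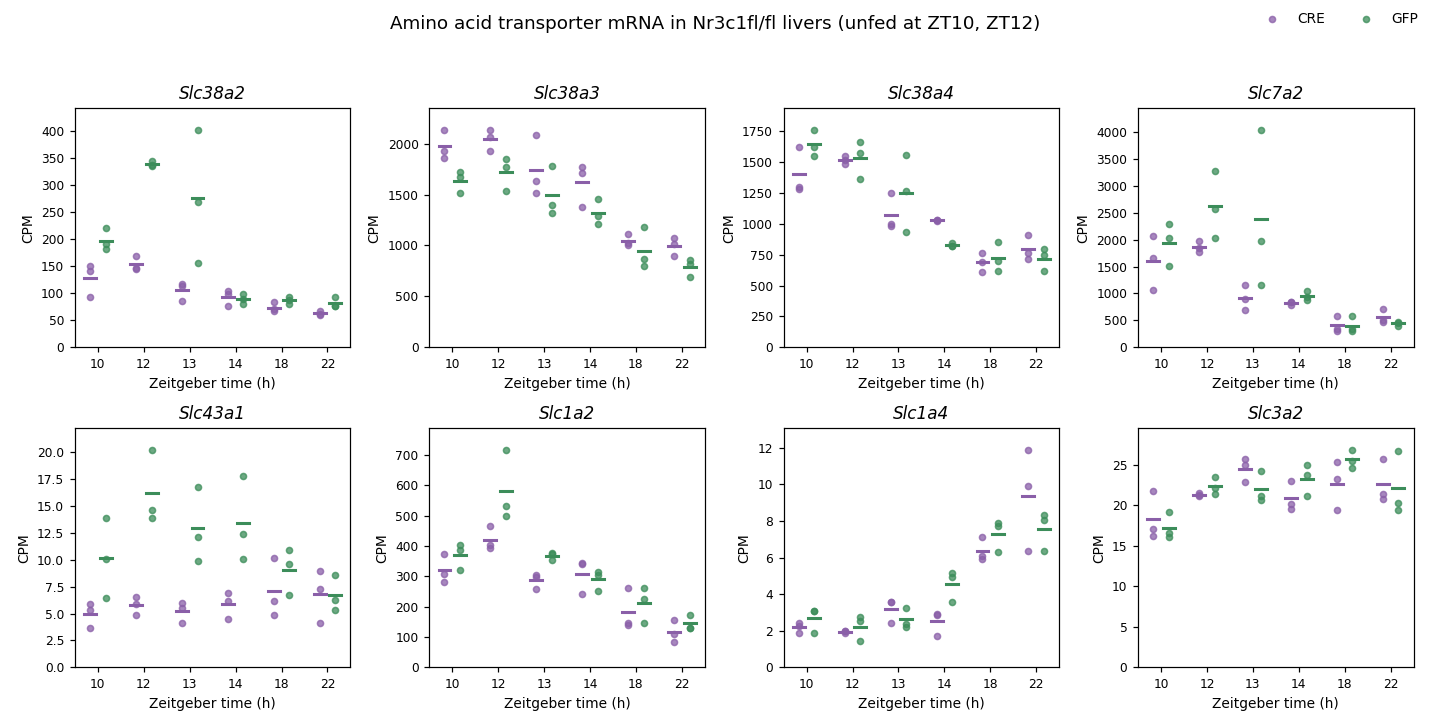
CPM of each transporter (vertical axes, from 0) against Zeitgeber time in Nr3c1fl/fl livers, with 1 point per library, CRE left of GFP at each time, and bars at the mean of 3 libraries. Slc38a2 at ZT12 lies between 146 and 168 CPM in CRE and between 336 and 346 CPM in GFP livers, and the groups overlap at ZT14 and ZT18.

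The differences of Slc38a2 that passed by time were at ZT12 and ZT13. At ZT12, before food, it was at 168, 148 and 146 CPM in CRE livers and at 336, 346 and 338 CPM in GFP livers. At ZT13 it was at 114, 86.2 and 117 CPM in CRE livers and at 403, 269 and 156 CPM in GFP livers. At ZT14 it was at 76.7, 99.2 and 105 CPM in CRE livers and at 80.0, 89.3 and 99.6 CPM in GFP livers. CRE and GFP libraries did not overlap at ZT10, ZT12, ZT13 and ZT22, and overlapped at ZT14 and ZT18. At ZT10, where the test was not passed, CRE livers were at 142, 93.5 and 150.3 CPM and GFP livers at 220.2, 191 and 181 CPM. The log2 fold change was -1.14 ± 0.20 at ZT12 (adjusted p = 0.000594), -1.38 ± 0.20 at ZT13 (adjusted p = 4.15e-05) and 0.06 ± 0.20 at ZT14 (adjusted p = 0.939). At ZT10, ZT18 and ZT22 it was -0.62 ± 0.20, -0.24 ± 0.20 and -0.40 ± 0.20 (adjusted p = 0.183, 0.813 and 0.482). The mean over the 6 times was -0.62 ± 0.08 (adjusted p = 2.07e-06).

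The CRE effect on Slc38a2 differed among the times (interaction, adjusted p = 0.0259), a test passed by 0.719% of genes and by 1 of the 8 transporters. That call was lost without any 1 of 5 libraries of ZT13 and ZT14 (adjusted p = 0.0507 to 0.0679), when the share of NR_046233 entered the fit (adjusted p = 0.0637) and without the 6 libraries over 20% in that row (adjusted p = 0.0907). Leaving those out removes all GFP libraries of ZT10 and 2 of 3 of ZT12, so that last test is over 5 times and not 6. The ZT12 value was -1.12 without those 6 libraries (adjusted p = 0.0754), against the 1 GFP library left there. With only the ZT13 groups in the fit, the ZT13 value was -1.36 (adjusted p = 0.115).

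Slc43a1 was also lower in CRE livers. At ZT12 it was at 4.89, 6.50 and 5.88 CPM in CRE livers and at 20.2, 13.9 and 14.6 CPM in GFP livers. At ZT14 it was at 4.53, 6.91 and 6.12 CPM in CRE livers and at 17.8, 10.1 and 12.4 CPM in GFP livers. From ZT10 to ZT14 the CRE and GFP libraries did not overlap, CRE being lower, and at ZT18 and ZT22 the groups overlapped. The mean log2 fold change was -0.90 ± 0.12 (adjusted p = 4.07e-06). It was -1.49 ± 0.30 at ZT12 (adjusted p = 0.00261), -1.32 ± 0.30 at ZT13 (adjusted p = 0.00634) and -1.20 ± 0.30 at ZT14 (adjusted p = 0.0358), and 0.00 ± 0.31 at ZT22 (adjusted p = 0.999). The ZT12 value was -1.33 without the 6 libraries over 20% in NR_046233 (adjusted p = 0.153). The ZT13 call was lost without GFP replicate 1 (adjusted p = 0.0724) and with only the compared groups in the fit (adjusted p = 0.0742), and the ZT14 call in 5 of 6 fits without 1 library (adjusted p up to 0.268). Whether the effect on Slc43a1 differed among times was not settled by the interaction (adjusted p = 0.25).

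The promoters of the pair that fell are shown for reference, again from RefSeq on GRCm38.p6. That of Slc43a1 is chr2:84840073-84840372 on the plus strand, with the E-box CACGTG in capitals, a motif that 7.15% of promoters hold. That of Slc38a2 is chr15:96699679-96699978 on the minus strand, and it held none of the 6 motifs searched.
Slc43a1: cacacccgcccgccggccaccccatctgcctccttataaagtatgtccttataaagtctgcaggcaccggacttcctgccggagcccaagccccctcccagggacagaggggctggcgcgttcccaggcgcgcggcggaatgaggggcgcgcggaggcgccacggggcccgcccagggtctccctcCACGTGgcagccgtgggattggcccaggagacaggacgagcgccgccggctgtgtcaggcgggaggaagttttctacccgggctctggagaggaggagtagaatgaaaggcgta
Slc38a2: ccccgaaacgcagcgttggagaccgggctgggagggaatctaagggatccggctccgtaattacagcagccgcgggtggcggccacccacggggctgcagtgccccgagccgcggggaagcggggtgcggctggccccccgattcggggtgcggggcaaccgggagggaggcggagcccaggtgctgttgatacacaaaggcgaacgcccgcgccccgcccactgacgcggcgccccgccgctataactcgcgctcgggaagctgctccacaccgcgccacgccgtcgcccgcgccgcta

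Slc38a3 was higher in the CRE mean, with a positive log2 fold change at each of the 6 times. At ZT12 it was at 2066, 1924 and 2135 CPM in CRE livers and at 1770, 1850 and 1539 CPM in GFP livers. At ZT22 it was at 1069, 893 and 1016 CPM in CRE livers and at 822, 861 and 695 CPM in GFP livers. The groups were apart at ZT10, ZT12 and ZT22 and overlapped at the other times. The mean log2 fold change was 0.25 ± 0.06 (adjusted p = 0.00283), and at single times it was 0.14 to 0.32 with adjusted p of 0.378 to 0.851.

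Slc7a2 at ZT13 rested on libraries that spread widely. It was at 893, 685 and 1152 CPM in CRE livers and at 4040, 1968 and 1161 CPM in GFP livers, so the lowest GFP library lay just above the highest CRE library. The log2 fold change was -1.39 ± 0.32 (adjusted p = 0.00684). Without GFP replicate 1 it was -0.78 (adjusted p = 0.209), and without CRE replicate 2 it was -1.22 (adjusted p = 0.0582). With only the compared groups in the fit it was -1.37 (adjusted p = 0.214). The same GFP library held the highest ZT13 level of Slc38a2 (403 CPM), Slc38a4 (1556 CPM) and Slc43a1 (16.8 CPM). The mean over the 6 times was -0.34 ± 0.13 and missed the threshold (adjusted p = 0.0772). It passed without GFP replicate 3 at ZT13 (adjusted p = 0.0168) or CRE replicate 1 at ZT18 (adjusted p = 0.0325).

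Slc1a2 was at -0.25 ± 0.09 in the mean (adjusted p = 0.0679; adjusted p = 0.0437 by DESeq2). At ZT12 it was at 392, 465 and 405 CPM in CRE livers and at 717, 533.5 and 498 CPM in GFP livers, which did not overlap. The edgeR call was gained without GFP replicate 3 at ZT18, CRE replicate 1 at ZT18 or CRE replicate 2 at ZT22 (adjusted p = 0.0112 to 0.0279). Slc38a4, Slc1a4 and Slc3a2 had mean log2 fold changes of -0.01 ± 0.06, -0.14 ± 0.10 and -0.02 ± 0.05 (adjusted p = 0.926, 0.418 and 0.858). Slc1a4 at ZT14 was at 2.86, 1.73 and 2.94 CPM in CRE livers and at 4.94, 5.13 and 3.57 CPM in GFP livers. Its log2 fold change there was -0.85 ± 0.25 (adjusted p = 0.0826; adjusted p = 0.0462 by DESeq2 and 0.0227 with the share of NR_046233 in the fit), and at the other times CRE and GFP libraries overlapped.

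Within GFP livers all 8 transporters differed among the 6 times (47.4% of genes), and within CRE livers 6 did (41.5% of genes). In these mice hour and food change together. The 2 that did not pass in CRE livers were Slc43a1 (adjusted p = 0.628) and Slc3a2 (adjusted p = 0.101). Slc43a1 in GFP livers was at 10.1 ± 3.69, 16.2 ± 3.44, 12.9 ± 3.52, 13.4 ± 3.95, 9.08 ± 2.13 and 6.72 ± 1.65 CPM from ZT10 to ZT22 (SD, n = 3 each, adjusted p = 0.0103), and its means in CRE livers lay between 4.98 and 7.06 CPM. Slc3a2 in GFP livers (adjusted p = 0.0119) missed the threshold without ZT10 replicate 1 or 3 (adjusted p = 0.0581 and 0.0657), with the share of NR_046233 in the fit (adjusted p = 0.112) and without the 6 libraries over 20% in that row (adjusted p = 0.446). Slc1a4 in CRE livers averaged 2.20 ± 0.273 CPM at ZT10, against 9.38 ± 2.80 CPM at ZT22, and in GFP livers 2.68 ± 0.686 and 7.58 ± 1.06 CPM in GFP livers (adjusted p = 8.82e-09 over CRE and 3.21e-07 over GFP times). Slc7a2 in CRE livers averaged 1597 ± 500.3 CPM at ZT10, against 407 ± 151 CPM at ZT18, and in GFP livers 1941 ± 404 and 405 ± 154 CPM in GFP livers.

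Over the 12 Nr3c1fl/fl groups the highest mean was 6.48 times the lowest for Slc7a2 (GFP unfed ZT12 over GFP fed ZT18), 5.42 times for Slc38a2 (GFP unfed ZT12 over CRE fed ZT22), 5.02 times for Slc1a2 (the same pair of groups) and 4.80 times for Slc1a4 (CRE fed ZT22 over CRE unfed ZT12). It was 3.26, 2.58, 2.40 and 1.49 times for Slc43a1, Slc38a3, Slc38a4 and Slc3a2. Of the 11 neighbouring pairs in the order of means, 9 to 11 overlapped for each gene. The GFP unfed ZT12 group stood clear of the next for Slc1a2.

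GR binding was mapped by ChIP in unfed livers at ZT10, with 1 sample each of GR and of input from C57BL/6 mice without virus and of GR from Nr3c1fl/fl mice given AAV-tbg-GFP or AAV-tbg-CRE. The authors deposited 3 lists of peak positions on mm10, read here as counting from 0 with starts printed 1 higher. The list described as concordant between replicates came with the C57BL/6 GR sample, and the labels do not say which libraries those replicates were. Of its 5772 peaks the nearest were read for each gene, and 5 of the 8 transporters had a peak within 25 kb of the gene, against 28.6% of 15815 tested genes. They were Slc38a2, Slc38a4, Slc7a2, Slc43a1 and Slc1a2, and each had a peak inside the gene. Within 10 kb the same 5 had one (21.0% of genes), and within 100 kb 6 did (52.9%). In the list called against input, which came with the C57BL/6 input sample, 8 had one within 25 kb (62.0% of genes), and in that called against chromatin of CRE livers, which came with the Nr3c1fl/fl CRE sample, 7 (70.3%). Distances were taken to the whole gene, and the tested genes were not matched to the transporters for length.

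Slc38a2 (gene chr15:96687392-96699728) held a peak at chr15:96696766-96696974, 2.86 kb from its start and inside the gene, with another 0.9 kb past the gene's other end and a pair 17.6 and 18.7 kb upstream. Slc43a1 (chr2:84838855-84863586) held one at chr2:84851061-84851269, 10.84 kb from the listed start. Slc7a2 (chr8:40862341-40922070) held one at chr8:40876948-40877156, and Slc1a2 (chr2:102658239-102790784) one at chr2:102745667-102745875. Slc38a4 (chr15:96994816-97055956), which did not differ between CRE and GFP livers past the threshold, held 5, the most among the 8. Slc38a3 (chr9:107651154-107668968), Slc3a2 (chr19:8706882-8723369) and Slc1a4 (chr11:20302180-20332713) had their nearest peak of that list 342.2, 75.7 and 310.4 kb from the gene. Of the 3 transporters past the threshold in the CRE mean, 2 (Slc38a2 and Slc43a1, both lower) had a peak of that list within 25 kb and 1 (Slc38a3, higher) had none. Slc38a4, Slc7a2 and Slc1a2, which did not pass in the CRE mean, also had a peak inside the gene. The list called against input put a peak inside Slc38a3, and that called against CRE chromatin put none within 25 kb of it. Whether a peak is in an exon or intron was not resolved here.

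Other amino acid carriers of the plasma membrane were read from a fixed list of 30, of which 21 were tested in C57BL/6 and 22 in Nr3c1fl/fl livers. In fed livers 2 rose and 4 fell, 6 of 21 against 35.4% of all tested genes. The lysosomal and surface proton-coupled carrier Slc36a1 rose by 0.51 ± 0.06 (adjusted p = 4.83e-07), whereas the glycine carrier Slc6a9 fell by 0.49 ± 0.06 (adjusted p = 2.07e-06), the aromatic amino acid carrier Slc16a10 fell by 0.32 ± 0.06 (adjusted p = 0.000125) and Slc43a2, a relative of Slc43a1, fell by 0.25 ± 0.07 (adjusted p = 0.00417). In CRE livers 3 were higher and 3 lower, 6 of 22 against 14.5% of all tested genes. Slc3a1, the heavy chain of the cystine carrier and a relative of Slc3a2, fell by 0.99 ± 0.14 (adjusted p = 9.32e-06) to a mean of 31.5 CPM in CRE, against 61.7 CPM in GFP livers. Slc6a9 fell by 0.45 ± 0.09 (adjusted p = 0.000482), and Slc36a4 and the taurine carrier Slc6a6 were higher by 0.29 ± 0.06 and 0.18 ± 0.04 (adjusted p = 0.000611 and 0.00167).

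The light chains that pair with Slc3a2 came next. Of 6 listed, 5 were tested. In the means, their adjusted p ran from 0.228 to 0.708 for food and from 0.454 to 0.998 for CRE, with log2 fold changes of -0.14 to 0.28 and of -0.17 to 0.12. By hour, 1 of the 5 was higher in fed livers at ZT18, where 26.4% of all genes passed, and 0 were called at the other hours. The median log2 fold change of the 5 for food was -0.20, 0.21, 0.40 and 0.27 from ZT13 to ZT22. Of 15 carriers of inner membranes 13 were tested, of which 4 passed in fed livers (35.4% of all genes) and 2 in CRE livers (14.5%). In fed livers 2 rose, Slc25a44 (0.43 ± 0.06), which carries branched-chain amino acids into mitochondria, and Slc38a11 (0.64 ± 0.18). In fed livers 2 fell, the glutamate carrier Slc25a22 (-0.48 ± 0.09) and the aspartate-glutamate exchanger Slc25a13 (-0.21 ± 0.04). In CRE livers 2 fell, the ornithine carrier Slc25a15 (-0.37 ± 0.07) and the aspartate-glutamate exchanger Slc25a12 (-0.13 ± 0.04).

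Of 25 ATF4 targets in a fixed list, 7 rose and 6 fell in fed livers, against 17.5% of all tested genes higher and 17.9% lower. Those with the smallest p were the stress genes Sesn2 (-1.35 ± 0.09), Trib3 (-1.24 ± 0.16) and Chac1 (-1.58 ± 0.20), which fell, and the tryptophan tRNA synthetase Wars (0.51 ± 0.06), which rose. In CRE livers 1 of the 25 was higher, Vldlr (0.85 ± 0.24), and 3 were lower, Cebpb (-0.53 ± 0.08), Atf5 (-0.40 ± 0.07) and Ddit4 (-0.76 ± 0.18), against 7.77% of all genes higher and 6.71% lower.

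The enzymes downstream of uptake were read from 30 genes of amino acid breakdown and the urea cycle. In fed livers 13 fell (17.9% of all genes), led by Tdo2 (-0.55 ± 0.08), which starts tryptophan breakdown, the aspartate aminotransferase Got1 (-0.71 ± 0.10), the branched-chain subunit Bckdha (-0.26 ± 0.05) and the serine dehydratase Sds (-0.61 ± 0.13). In CRE livers 15 fell and 2 rose, against 6.71% of all genes lower and 7.77% higher. Arg1, which makes urea and ornithine from arginine, fell by 0.76 ± 0.06 to a mean of 382 CPM in CRE, against 650.2 CPM in GFP livers. The glycine cleavage gene Gldc (-1.10 ± 0.11), Asl (-0.72 ± 0.08) and Cps1 (-0.55 ± 0.06), both of the urea cycle, were also lower. The median log2 fold change of the list was -0.11 in fed livers and -0.20 in CRE livers, against 0.01 and -0.01 for all genes.

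Zonation lists share genes with the breakdown list (among them Sds and Arg1, periportal, and Oat, pericentral), so their counts are not separate results. They gave 3 higher and 1 lower of 10 pericentral genes and 5 lower of 10 periportal genes in fed livers. There 35.4% of all genes passed, so the pericentral count is near that share. The median log2 fold change in fed livers was 0.10 for the pericentral and -0.18 for the periportal list, against 0.01 for all genes. Cyp2e1, the 1 pericentral gene that was lower, fell by 0.44 ± 0.05 and Pck1, which is periportal, fell by 1.40 ± 0.14. In CRE livers 4 pericentral genes were higher and 1 lower, with Oat, the ornithine aminotransferase, at 0.57 ± 0.12, and 5 periportal genes were lower, where 14.5% of all genes passed. Slc1a2, which is pericentral in liver, was lower in fed livers and not past the threshold in CRE livers. Of 12 known GR targets, which include Pck1 of the periportal list, 10 fell in fed livers (17.9% of all genes) and 11 in the CRE mean (6.71%). By time from ZT10 to ZT22, 5, 10, 12, 3, 0 and 0 of them were lower in CRE livers. Nr3c1 itself was not called at ZT18 or ZT22. Of all genes 0.707%, 3.64%, 5.09%, 1.56%, 0.102% and 0.146% were called at those times, in either direction. Lpin1 was at -2.53 ± 0.10, Zbtb16 at -2.17 ± 0.13 and Fkbp5 at -1.77 ± 0.13 in the CRE mean.

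The genes most like each transporter were sought over the 21 groups of both experiments, each centred within its experiment, among 9578 genes of at least 5 CPM on average. Pearson's r is given as a description, since the groups share hours and food. Most like Slc38a2 were Klf15 (0.945), Tnfrsf1b (0.939) and Nfkbia (0.927). For Slc38a3 they were Pcsk4 (0.963), Dbp (0.952), a transcription factor of clock output, and Mfsd1 (0.944), and for Slc38a4 they were Atg14 (0.969), Fnip1 (0.968) and Klhl24 (0.966). Those of Slc7a2 were Akap11 (0.97), Abca6 (0.957) and Bag4 (0.956), and those of Slc1a2 were Plk3 (0.958), Eci2 (0.957) and Por (0.951). Slc43a1 was most like Prodh (0.898), the first enzyme of proline breakdown, Hopx (0.893) and Gcnt4 (0.875). Slc1a4 was most like Hdhd3 (0.933), Serpinh1 (0.93) and Elovl1 (0.927), and Slc3a2 most like Hexim1 (0.911), Fbxl19 (0.909) and Plod1 (0.884).

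Among the transporters themselves, Slc7a2 and Slc38a4 were most alike (r = 0.914), followed by Slc7a2 with Slc38a2 (0.884) and with Slc1a2 (0.872). Slc1a4 ran against these, with r of -0.888 to Slc7a2, -0.88 to Slc1a2 and -0.872 to Slc38a4. Slc43a1 lay between -0.194 and 0.54 with each of the others. Slc3a2 lay between -0.638, with Slc38a3, and 0.353, with Slc1a4, and was at -0.552 with Slc38a4.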

How the data were processed

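The authors deposited raw counts per RefSeq transcript, 1 column a library. Tools named per the submitters' processing notes, without roles, are HOMER, STAR and DESeq2, with builds mm10 and rn5. The sources used here do not give strand use. Rows were matched by accession to the GRCm38.p6 gene table (40214 of 40458 rows, 24786 genes), and isoforms of a gene share reads, so the row with the highest summed count stood for a gene (rows of 1 gene differ little here: the second row of a transporter held 94.5% to 100% of the first row's counts). Unmatched rows, at most 28.7% of a library's counts, stayed out of library sizes. The main test was edgeR 4.0.16 under R 4.3.3 (TMM, filterByExpr, quasi-likelihood F-test), 1 fit per experiment, Benjamini-Hochberg over all tested genes. Each SE is the absolute log2 fold change divided by the root of its F value. Members, lists and tests were chosen with earlier results of these data known. Lists share some genes and were described by counts and medians. Named are the 8 transporters, up to 4 genes of each list with the smallest p in the mean for food and for CRE, Nr3c1, and the 3 genes most like each transporter. Alternatives were DESeq2 1.42.0, RLE size factors, no count filter, only the groups compared, a replicate block, the second transcript row, the NR_046233 share as a covariate, and leaving out doubtful libraries or each library in turn. The tests were checked on simulated counts. Deposited peak lists hold positions only, so other values there (score or height) were not used.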

Additional observations from a re-analysis of the deposited data

Results flagged for a closer look

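A difference of effect between hours flagged 3 results. The response of Slc7a2 to food differed among the 4 hours (interaction, edgeR's adjusted p = 0.00731), with log2 fold changes of -0.78 at ZT13 and -1.88 at ZT18, negative in every fed group. That of Slc1a2 also differed (adjusted p = 0.00345), with -0.00 at ZT14 and -0.85 at ZT18. For both genes the hour and the length of the fast in unfed livers cannot be told apart. The CRE effect on Slc38a2 differed among the 6 times (adjusted p = 0.0259), with -1.38 at ZT13 and 0.06 at ZT14. Groups of 3 libraries are too small for a test of single libraries that stand apart.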

How the results depend on the processing

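No called direction turned round under any alternative run. Depth limits Slc1a4 and Slc43a1 most, with 26 to 302 and 59 to 835 counts a library. Of counts from 1 to 10, 75.7% to 84.6% were even in C57BL/6 libraries and 77.2% to 85.1% in Nr3c1fl/fl libraries. A count may thus not stand for 1 independent read, and the reason was not tested. The planned level per kb was not run for want of transcript lengths. Leaving out libraries 1 at a time, the transporters called in the CRE mean were 3 to 5 and those whose CRE effect differed among times 0 to 2. That second count was 0 with the NR_046233 share as a covariate and 0 without the 6 libraries over 20%. With only the compared groups in the fit, 3 of 48 tests of CRE by time passed, against 6, and the list of peaks called against input put a peak near 8 transporters, against 5. Whether the replicate numbers pair the libraries is not settled by the low same-number correlations (-0.139 to 0.128). At ZT12 each CRE library matched the GFP library of its own number best (0.059, 0.128 and 0.105). With a replicate block 140 values kept direction and call, 1 was gained and 3 changed sign. The cause of these shifts was not tested. Values that changed sign, all log2 fold changes, had not passed the test. Slc1a2 at ZT14 fed over unfed was 0.007 by DESeq2 and with RLE size factors, 0.004 with the block, 0.008 in the second transcript row and 0.009 with compared groups only. For CRE over GFP with the covariate, Slc1a4 was 0.020 and Slc3a2 -0.003 at ZT10, and Slc38a4 was 0.020 and Slc1a4 0.277 at ZT12. Without the 6 libraries, which leaves no GFP library at ZT10 and so 5 times, Slc38a4 was 0.065 and Slc1a4 0.003 in the mean, and at ZT12 Slc38a4 was 0.165, Slc1a4 0.474 and Slc3a2 0.008. Slc38a4 at ZT12 was 0.003 in the second row, Slc7a2 at ZT18 was -0.028 with the block, and Slc43a1 at ZT22 was -0.002 with RLE factors, -0.003 with no filter, -0.031 with the block, -0.028 with the covariate and -0.008 without the 6 libraries.

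Without 1 library at a time, the fed values ran from -0.048 to 0.081 for Slc43a1 in the mean, -0.23 to 0.034 for Slc1a2 and -0.097 to 0.118 for Slc3a2 at ZT13, -0.09 to 0.103 for Slc1a2 at ZT14, -0.045 to 0.134 for Slc38a3 at ZT18, and at ZT22 -0.059 to 0.126 for Slc38a3, -0.456 to 0.027 for Slc43a1 and -0.143 to 0.05 for Slc3a2. The CRE values ran in the mean from -0.042 to 0.018 for Slc38a4 and -0.045 to 0.007 for Slc3a2, at ZT10 from -0.052 to 0.196 for Slc3a2, at ZT12 from -0.09 to 0.061 for Slc38a4 and -0.429 to 0.103 for Slc1a4, at ZT14 from -0.028 to 0.189 for Slc38a2 and -0.004 to 0.236 for Slc1a2, at ZT18 from -0.176 to 0.053 for Slc38a4 and -0.338 to 0.356 for Slc7a2, and at ZT22 from -0.258 to 0.273 for Slc43a1 and -0.072 to 0.186 for Slc3a2.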
